A study of Homo sapiens with 16 samples.

Results

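Parental cells of KMS12PE and of KMS27, both human myeloma cell lines that carry the t(11;14) translocation and are labelled sensitive to venetoclax, were compared at baseline by sequencing of poly-A RNA. The comparison rests on 4 of the 16 libraries of the study: KMS12PE parental replicates 1 and 3, and KMS27 parental replicates 1 and 2. Both lines were grown in RPMI-1640 medium with serum, and the labels give neither the parental cells' drug or vehicle nor whether replicates came from separate cultures. P-values therefore measure the spread between replicate libraries, which may be technical and was estimated over all 16 libraries, not the 4 parental ones alone. The other 12 libraries are clones grown from single cells of the same lines, resistant to venetoclax and kept in 100 nM of it (A, C and D from KMS12PE, B5, C1 and C5 from KMS27, with 2 libraries each). They enter the estimate of the spread, and are used here to show where the difference between the lines was also seen in cells derived from them. Each line is 1 cell line, so what is described is a difference between these lines and not between kinds of myeloma.

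Multiple myeloma is a cancer of plasma cells, the antibody-secreting end stage of B cells. The t(11;14) translocation brings the cyclin D1 gene CCND1 under control of the immunoglobulin heavy-chain enhancers. Venetoclax fits the groove by which the survival protein BCL2 holds pro-death proteins that carry a BH3 helix, and myelomas with t(11;14) are known for their response to it. Sensitivity is known to depend on the balance of BCL2 with its relatives MCL1 and BCL2L1 and with the BH3-only proteins that bind them. Plasma cells also depend on a large endoplasmic reticulum, on the unfolded protein response that maintains it, and on the transcription factors IRF4, PRDM1 and XBP1.

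The counts are in 1 table per line, and each table was filtered on its own. The KMS12PE table lists 12592 genes, and 14560 genes are in the KMS27 table. Of these, 11623 are in both and were tested, 969 are in the KMS12PE table only and 2937 in the KMS27 table only. Total counts were 5831289 and 6340658 in KMS12PE, against 26653196 and 26632039 in KMS27. In the same order, 3 counts corresponded to 0.503 and 0.444 CPM (counts scaled to a common library total with a composition factor) in KMS12PE, and to 0.116 and 0.125 CPM in KMS27. Immunoglobulin genes took 0.165% and 0.173% of the counts in KMS12PE, against 4.06% and 4.39% in KMS27. Line, table and depth cannot be told apart. From here on, KMS12PE and KMS27 stand for the parental libraries unless clones are named, values are given per library in CPM, and ± is the standard error of a log2 fold change of KMS12PE over KMS27. A gene is called where edgeR's quasi-likelihood test gave a Benjamini-Hochberg adjusted p under 0.05 and the difference was at least 2-fold.

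Most markers of other blood and tissue cells were outside at least 1 table or low. None of 20 T and natural killer cell markers and none of 12 erythroid and platelet markers were in both tables. Of 12 myeloid markers only CD68 was in both, at 2.01 and 1.33 CPM in KMS12PE, against 0.0773 and 0.502 CPM in KMS27. Of 13 stromal and epithelial markers only CDH1 was in both, at 1.17 and 3.7 CPM in KMS12PE, against 9.5 and 9.32 CPM in KMS27. Exceptions of higher level in 1 table were EPCAM, an epithelial adhesion protein, at 97.1 and 100.1 CPM in KMS12PE, and TRBC2, a T cell receptor constant gene, at 81.2 and 96.5 CPM in KMS27. Of 25 plasma cell identity genes 21 were in both tables, among them the factors IRF4, PRDM1 and XBP1 and the surface protein SDC1, so both lines carried RNA of plasma cell markers.

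Between the lines, with 2 libraries each, 3851 of the 11623 genes were called, which is 33.1%. They split into 1787 genes (15.4%) higher in KMS12PE and 2064 genes (17.8%) lower in KMS12PE. With scaling by library totals only, the calls split into 2163 higher and 1668 lower, because all fold changes moved up by 0.16 on the log2 scale. An adjusted p under 0.05 with no minimum fold was reached by 7430 genes (63.9%), so the 2-fold limit sets the count. A difference of at least 8-fold was called for 544 genes, 299 of them higher and 245 lower in KMS12PE. At the other end, 43.2% of the genes lay within 1.5-fold. These shares are the background for counts within gene groups. In bulk RNA, fewer cells that express a gene and less RNA per cell cannot be told apart.

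**Figure D1:**
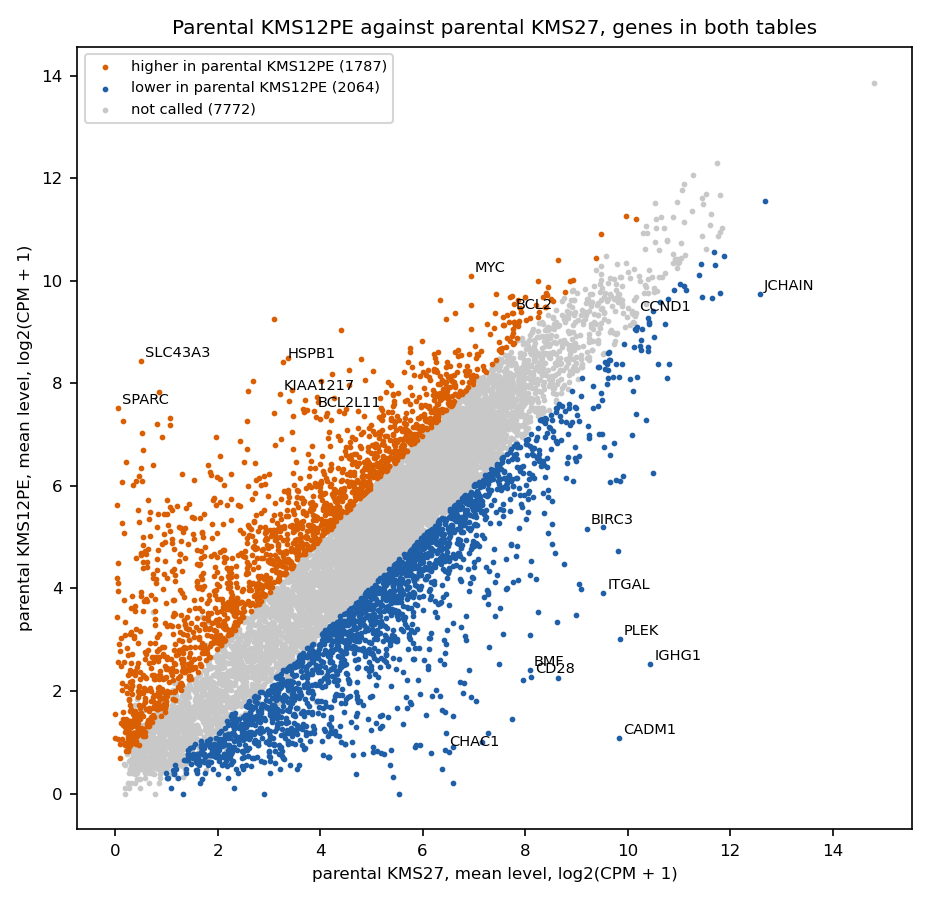
Mean level of each of the 11623 genes in parental KMS12PE (y axis) against parental KMS27 (x axis), both as log2(CPM + 1), with the 3851 called genes coloured by direction and some genes labelled. The 1787 genes higher in KMS12PE lie above the diagonal and the 2064 lower ones below it.

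The largest differences were close to presence against absence. SPARC, a secreted matrix-binding glycoprotein, was measured at 199 and 166 CPM in KMS12PE, against 0.0386 and 0.0418 CPM in KMS27. KMS27 held 2 SPARC counts in all, and the ratio was 4525-fold (exact 95% counting interval 1251 to 37383). PLD4, an endolysosomal nuclease of the phospholipase D family, was at 51 and 46.5 CPM in KMS12PE, against 0 and 0.0418 CPM in KMS27, with 1 count in KMS27 and a ratio of 2421-fold (exact 95% counting interval 433 to 95773). SOHLH2, a germ cell transcription factor, was at 132 and 175 CPM in KMS12PE, against 0.232 and 0 CPM in KMS27. Its 6 counts in KMS27 all came from 1 library. SLC43A3, a purine nucleobase transporter, was at 358 and 333 CPM in KMS12PE, against 0.580 and 0.251 CPM in KMS27 (log2 fold change 9.66 ± 0.27, adjusted p = 1.00e-11). All 4 genes were high in both KMS12PE libraries and under 1 CPM in both KMS27 libraries. TNFRSF8, which encodes the receptor CD30, was at 41.4 and 34.1 CPM in KMS12PE, against 0.0386 and 0.167 CPM in KMS27 (log2 fold change 8.46 ± 0.31, adjusted p = 8.79e-11). SEMA4D, a semaphorin found on lymphocytes, was at 119.8 and 139 CPM in KMS12PE, against 0.348 and 0.543 CPM in KMS27 (log2 fold change 8.17 ± 0.28, adjusted p = 4.94e-11). SVIL, the actin-binding protein supervillin, was at 208 and 243 CPM in KMS12PE, against 0.773 and 0.836 CPM in KMS27 (log2 fold change 8.12 ± 0.32, adjusted p = 1.55e-10). RASA3, SPAG6, TTC7B, HVCN1 and DGKH complete the 12 largest, with log2 fold changes of 9.28, 9.03, 8.0, 7.80 and 7.78.

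In the other direction FBXL7, an F-box protein of a ubiquitin ligase, had no count in KMS12PE, where up to 3 counts over the group remain possible, and stood at 48.1 and 42.3 CPM in KMS27. Set against 3 counts over the KMS12PE group, FBXL7 was at least 192-fold lower in KMS12PE, a limit that covers counting error only. CADM1, an immunoglobulin-like adhesion protein, was at 1.34 and 0.888 CPM in KMS12PE, against 875 and 949 CPM in KMS27 (log2 fold change -9.68 ± 0.24, adjusted p = 9.18e-12). PLEK, the protein kinase C substrate pleckstrin, was at 6.21 and 8.0 CPM in KMS12PE, against 839.8 and 997 CPM in KMS27 (log2 fold change -7.01 ± 0.24, adjusted p = 4.19e-11). CHAC1, an enzyme that degrades glutathione, was at 0.839 and 0.740 CPM in KMS12PE, against 80.6 and 90.5 CPM in KMS27 (log2 fold change -6.75 ± 0.18, adjusted p = 9.18e-12). These genes were low in both KMS12PE libraries and high in both KMS27 libraries. GAS2, ADAM28, INHBE, ATP8A1, IL16 and ADAM8 had log2 fold changes of -7.68, -7.12, -6.94, -6.93, -6.83 and -6.78. TTYH3 had 3 counts in KMS12PE and a ratio of 178-fold (exact 95% counting interval 61 to 862) in favour of KMS27. RGPD6 had 2 counts in KMS12PE and a ratio of 604-fold (exact 95% counting interval 167 to 4989) in favour of KMS27, but it has near-identical copies in the genome and its counts are uncertain.

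The BCL2 family, the protein group that venetoclax acts on, differed between the lines in both directions. Of its 4 tested survival genes 1 was called higher and 1 lower in KMS12PE. Of its 8 tested pro-death genes 1 was called higher and 2 lower. Over all genes 15.4% were called higher and 17.8% lower. BCL2, the target of venetoclax on chromosome 18, was at 648 and 682 CPM in KMS12PE, against 211 and 214 CPM in KMS27 (log2 fold change 1.65 ± 0.10, adjusted p = 1.19e-08). Both KMS12PE libraries lay above both KMS27 libraries. MCL1, the relative on which many myelomas depend, was at 366 and 387 CPM in KMS12PE, against 548 and 542 CPM in KMS27 (log2 fold change -0.53 ± 0.09, adjusted p = 1.82e-04). BCL2L1, which encodes BCL-XL, was at 13.8 and 13.2 CPM in KMS12PE, against 17.9 and 19.8 CPM in KMS27 (log2 fold change -0.49 ± 0.18, adjusted p = 0.0299). Both were lower in each KMS12PE library than in each KMS27 library by less than 2-fold, so neither was called. BCL2L2, which encodes BCL-W, was at 6.71 and 10.5 CPM in KMS12PE, against 25.4 and 23.2 CPM in KMS27 (log2 fold change -1.49 ± 0.24, adjusted p = 1.02e-04) and was called lower. BCL2A1 was in neither table and was not analysed here.

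Among the BH3-only genes, whose products neutralise the survival proteins or activate the effectors, BCL2L11, which encodes BIM, was at 169 and 181 CPM in KMS12PE, against 13.5 and 13.8 CPM in KMS27 (log2 fold change 3.68 ± 0.13, adjusted p = 4.94e-11). BMF, a BH3-only protein linked to the cytoskeleton, was at 4.87 and 3.7 CPM in KMS12PE, against 271 and 272 CPM in KMS27 (log2 fold change -5.99 ± 0.15, adjusted p = 9.18e-12). BBC3, which encodes PUMA, was at 2.18 and 2.22 CPM in KMS12PE, against 9.62 and 9.53 CPM in KMS27 (log2 fold change -2.12 ± 0.25, adjusted p = 5.92e-06). BCL2L11 was thus higher in both KMS12PE libraries, and BMF and BBC3 were higher in both KMS27 libraries. PMAIP1 (NOXA), BID and BAD were not called, at log2 fold changes of -0.48, 0.47 and -0.11. Nor were the effectors BAX at -0.45 and BAK1 at 0.83, which open the mitochondrial outer membrane. BIK was in the KMS12PE table only, at 3.02 and 3.7 CPM, and HRK in the KMS27 table only, at 10.8 and 8.36 CPM, so neither has a fold change.

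**Figure D2:**
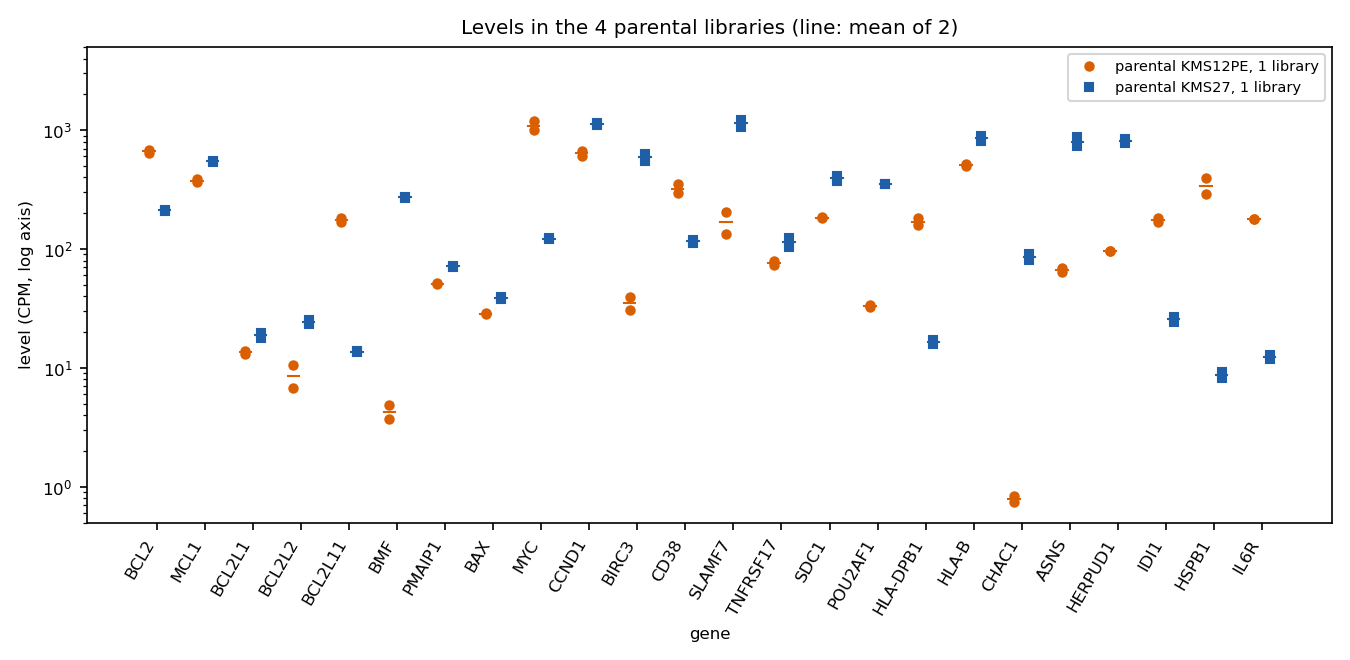
Level in CPM (log axis) of 24 genes named in the text, with 1 point per parental library, KMS12PE (circles) left of KMS27 (squares) for each gene, and a short line at the mean of 2 libraries. BCL2, BCL2L11 and MYC are higher in both KMS12PE libraries, and BMF, BIRC3 and CHAC1 are higher in both KMS27 libraries.

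Downstream of the mitochondria, 2 of 15 genes of the apoptosome, the caspases and their inhibitors were called higher and 2 lower. In all 26.7% of this group were called, against 33.1% of all genes (15.4% higher and 17.8% lower). CYCS, the cytochrome c that starts the apoptosome, was called higher (log2 fold change 1.69), as was DIABLO, an antagonist of the inhibitors of apoptosis (1.04). BIRC3, an inhibitor of apoptosis that also acts in NF-kB signalling, was at 30.5 and 39.4 CPM in KMS12PE, against 626 and 552 CPM in KMS27 (log2 fold change -4.07 ± 0.21, adjusted p = 1.77e-09). The initiator caspase genes CASP8 and CASP9 were not called, at 0.33 and -0.22. Without 1 parental library (KMS12PE replicate 1 or KMS27 replicate 1) 1 gene of this group was called higher. Of 11 death receptor genes 1 was called higher and 4 lower in KMS12PE. TNFRSF1B, a receptor for tumour necrosis factor, was at 53.4 and 51.1 CPM in KMS12PE, against 1.04 and 0.962 CPM in KMS27 (log2 fold change 5.69 ± 0.27, adjusted p = 9.46e-10). FAS was called lower (-2.23), as were the TRAIL receptor gene TNFRSF10B (-1.18), the caspase-8 regulator CFLAR (-1.23) and the adaptor TRADD (-3.38).

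The translocation target CCND1, on chromosome 11, was at 609.7 and 668 CPM in KMS12PE, against 1155 and 1098 CPM in KMS27 (log2 fold change -0.82 ± 0.11, adjusted p = 2.38e-05). It was lower in both KMS12PE libraries than in both KMS27 libraries, by less than 2-fold. CCND2 was in the KMS27 table only, at 242 and 227 CPM, and CCND3 was not called (0.93). Its kinase partners CDK4 and CDK6 were not called either, at 0.21 and 0.55. Of the 18 tested genes of the cyclin D, kinase and RB group 2 were called higher and 3 lower. Together these are 27.8% of the group, against 33.1% called over all genes. The higher ones are the kinase inhibitor genes CDKN2A (1.19) and CDKN2B (1.46). The lower ones are CDKN2D (-1.64), the tumour suppressor RB1 (-1.25) and E2F2 (-1.45). CDKN2C, an inhibitor of CDK4 and CDK6, was in the KMS27 table only, at 30.4 and 37.4 CPM. The other kinase inhibitor genes CDKN1A (-0.87) and CDKN1B (0.36) were not called. Nor were the cyclin E genes CCNE1 (0.26) and CCNE2 (0.31), their kinase partner CDK2 (0.87), the RB relatives RBL1 (-0.01) and RBL2 (-0.42) and the factors E2F1 (-0.10) and E2F3 (0.38). With scaling by library totals only, 4 genes of the group were called higher and 3 lower.

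MYC, the growth-promoting transcription factor, was at 1189 and 996 CPM in KMS12PE, against 121 and 123 CPM in KMS27 (log2 fold change 3.16 ± 0.16, adjusted p = 2.04e-09). Its level was far higher in both KMS12PE libraries than in both KMS27 libraries. Of 20 tested genes of the MYC network 4 were called higher and none lower, which are MYC, MYCL (2.07), MLXIP (1.44) and MXD4 (1.03). All 4 are factors of the network. None of the 20 was called lower by DESeq2 either, and 3 had an unadjusted p under 0.05 in that direction. None of its 10 tested targets was called in edgeR's test, the highest being NCL at 1.0, just inside the 2-fold limit, although 5 of the 10 had an adjusted p under 0.05. Without KMS12PE replicate 3 the network had 2 genes higher and 1 lower, and without KMS27 replicate 1 it had 2 higher and none lower. MYEOV, a neighbour of CCND1 on chromosome 11, was in the KMS12PE table only, at 296 and 300.3 CPM. The oncogenes NRAS and BRAF, often mutated in myeloma, were not called, at -0.59 and -0.34.

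Few proliferation genes were called. Of 29 S-phase genes 1 was called higher and 2 lower in KMS12PE, and of 29 G2/M genes 3 were called higher and 2 lower, against 33.1% of all genes. The medians of these groups were 0.26 and 0.03 on the log2 scale. The G2/M median turned to -0.12 without KMS12PE replicate 3 and was 0.23 without KMS12PE replicate 1. Counts this small moved with single libraries: without KMS27 replicate 2 they were 2 higher and 2 lower in S phase and 4 higher and 1 lower in G2/M, and without KMS12PE replicate 1 or KMS27 replicate 1 they were 3 higher and 1 lower in G2/M. With library totals only they were 2 higher and 1 lower in S phase and 5 higher and 1 lower in G2/M. Among them MKI67, the usual proliferation marker, was called lower (-1.16), and PCNA, the sliding clamp of DNA replication, was not called (0.07).

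Genes of plasma cell identity were mostly lower in KMS12PE. Of the 21 tested, 1 was called higher and 12 lower, with a median log2 fold change of -1.09, against a median of -0.03 over all genes. POU2AF1, a B cell coactivator of octamer-binding factors, was at 33.7 and 32.3 CPM in KMS12PE, against 349.8 and 349 CPM in KMS27 (log2 fold change -3.41 ± 0.13, adjusted p = 3.84e-10). The plasma cell factors PRDM1, IRF4 and XBP1 had log2 fold changes of -1.44, -1.09 and -1.18. CD28, a costimulatory receptor, was at 1.85 and 5.77 CPM in KMS12PE, against 274 and 277 CPM in KMS27 (log2 fold change -6.14 ± 0.25, adjusted p = 1.90e-10). PIM2, a survival kinase of plasma cells, and FAM46C, a poly-A polymerase gene often mutated in myeloma, had log2 fold changes of -2.43 and -2.52. CD38 was the 1 member called higher. Genes of the secretory part that were not called include MZB1 (0.36) and TXNDC5 (0.54).

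B cell genes were called in both directions, with 3 of 15 higher and 6 lower, against 15.4% and 17.8% of all genes. Their median was -0.94, and 13 more were in the KMS27 table only. Lower in KMS12PE were the receptor signalling genes PLCG2 (-3.70), BTK (-3.06) and SYK (-2.85) and the factors ID3 (-3.34), SPIB (-2.70) and TCF3 (-1.69). Higher were BCL11A, a lymphoid transcription factor (5.54), PIK3CD, a phosphoinositide kinase subunit (1.44), and CIITA, the class II transactivator (3.17). PAX5, the factor that keeps B cell identity, was in the KMS27 table only, at 15.5 and 14.6 CPM. BACH2, a B cell repressor, was in the KMS12PE table only, at 55.5 and 57.7 CPM.

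The lines carried different immunoglobulin RNAs. IGHD, the delta heavy-chain constant gene, was in the KMS12PE table only, at 1392 and 1390.4 CPM. IGHG1, the gamma-1 heavy-chain constant gene, was at 3.36 and 6.22 CPM in KMS12PE, against 1333 and 1455 CPM in KMS27 (log2 fold change -8.16 ± 0.20, adjusted p = 9.18e-12). IGKC, the kappa light-chain constant gene, was in the KMS27 table only, at 27667 and 32468 CPM. JCHAIN, the joining chain of polymeric antibodies, was at 752 and 953 CPM in KMS12PE, against 5320.3 and 6956 CPM in KMS27 (log2 fold change -2.85 ± 0.24, adjusted p = 2.37e-07). The variable gene IGHV3-7 was at 140.1 and 151 CPM in KMS12PE, against 1.08 and 1.09 CPM in KMS27 (log2 fold change 7.06 ± 0.26, adjusted p = 8.33e-11). Variable and gamma constant genes share sequence, so counts of single members are uncertain.

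Surface proteins of interest for antibodies and engineered T cells were called in both directions. Of 7 tested antigens 3 were called higher and 2 lower, against 15.4% and 17.8% of all genes. Of 3 complement inhibitors on the same list 1 was called lower. CD38, the target of daratumumab, was at 294 and 350.0 CPM in KMS12PE, against 113 and 119 CPM in KMS27 (log2 fold change 1.47 ± 0.13, adjusted p = 2.80e-07). CD70, a ligand of the tumour necrosis factor family, was at 49.2 and 58.3 CPM in KMS12PE, against 2.51 and 3.09 CPM in KMS27 (log2 fold change 4.26 ± 0.20, adjusted p = 6.92e-10). CD47, a signal that restrains macrophages, was just past the 2-fold limit (1.01). SLAMF7, the target of elotuzumab, was at 134 and 204 CPM in KMS12PE, against 1057 and 1225 CPM in KMS27 (log2 fold change -2.75 ± 0.18, adjusted p = 1.47e-08). CD55, an inhibitor of complement, was at 14.9 and 15 CPM in KMS12PE, against 184 and 209 CPM in KMS27 (log2 fold change -3.72 ± 0.12, adjusted p = 2.45e-11). SDC1, which encodes CD138, was at 182 and 186 CPM in KMS12PE, against 376 and 409 CPM in KMS27 (log2 fold change -1.09 ± 0.12, adjusted p = 3.78e-06), and fell short of the 2-fold limit with scaling by library totals. CD38 and CD70 were thus higher in both KMS12PE libraries, and SLAMF7 and CD55 were higher in both KMS27 libraries.

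TNFRSF17, which encodes the antigen BCMA, was not called (-0.59), nor were ICAM1 (-0.65) and the complement inhibitors CD46 (-0.91) and CD59 (0.50). NCAM1, which encodes CD56, was in the KMS27 table only, at 139 and 129 CPM, as was MS4A1, which encodes CD20, at 0.348 and 0.125 CPM. GPRC5D was in the KMS12PE table only, at 1.34 and 1.18 CPM, and CD44 likewise, at 13.1 and 11.7 CPM. In the ubiquitin ligase that lenalidomide redirects, CRBN, the drug's receptor, was not called (0.14). Of 11 genes of that ligase and its substrates 2 were called higher, the scaffold gene CUL4A (1.68) and IKZF2 (1.06), and none lower in edgeR's test, although 4 had an adjusted and unadjusted p under 0.05 with a lower level. DESeq2 called none lower as well. In edgeR's test 18.2% of this group were called, against 33.1% of all genes. The substrates IKZF1 and IKZF3 lay inside the 2-fold limit, at -0.86 and -0.98, as did the substrates ZFP91 (-0.97), ZNF692 (-0.74) and CSNK1A1 (0.82). The ligase genes DDB1 (-0.14), CUL4B (0.26) and RBX1 (-0.63) were not called. Leaving out 1 parental library (KMS12PE replicate 1, KMS12PE replicate 3 or KMS27 replicate 2) put 1 gene of this group past the limit in the lower direction and left 1 or 2 in the higher direction.

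Most listed RNAs of the unfolded protein response and of amino acid stress were lower in KMS12PE. Of 30 unfolded protein response and secretion genes none was called higher and 19 were called lower in KMS12PE, with a median of -1.24. Of 29 tested aminoacyl-tRNA synthetase and amino acid stress genes none was called higher and 20 were called lower, with a median of -1.83. The corresponding shares over all genes were 15.4% higher and 17.8% lower. DESeq2 also called none of either list higher, and at an unadjusted p under 0.05 in edgeR 1 gene of the first list and none of the second were higher. DDIT3 and ATF4, which act in both pathways, stand in both lists. ATF4 is the transcription factor that answers amino acid shortage and endoplasmic reticulum stress by binding C/EBP-ATF elements in promoters. The unfolded protein response acts partly through an endoplasmic reticulum stress response element that binds ATF6 and XBP1 together with NF-Y.

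The promoters of some members are shown because they hold these elements. Sequences are from RefSeq on GRCh38.p14, run 5′ to 3′ on the gene's strand from 250 bases before to 50 bases after a transcription start, and carry the element in capitals. Searched on both strands, the C/EBP-ATF element TGATGNAAN was in promoters of 4.45% of 27305 genes and in 8 of the 20 list members with a promoter sequence. Of these 8 genes 7 were called lower, and IARS was not called (0.04). A match describes letters in this window and is no measurement of binding.
ASNS, chr7:97872359-97872658, minus strand: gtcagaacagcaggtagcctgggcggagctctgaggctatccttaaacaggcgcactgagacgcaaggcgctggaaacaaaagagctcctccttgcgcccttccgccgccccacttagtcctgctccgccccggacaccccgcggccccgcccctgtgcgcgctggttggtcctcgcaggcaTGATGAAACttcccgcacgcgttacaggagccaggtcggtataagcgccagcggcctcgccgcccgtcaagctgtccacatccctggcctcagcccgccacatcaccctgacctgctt
CHAC1, chr15:40953221-40953520, plus strand: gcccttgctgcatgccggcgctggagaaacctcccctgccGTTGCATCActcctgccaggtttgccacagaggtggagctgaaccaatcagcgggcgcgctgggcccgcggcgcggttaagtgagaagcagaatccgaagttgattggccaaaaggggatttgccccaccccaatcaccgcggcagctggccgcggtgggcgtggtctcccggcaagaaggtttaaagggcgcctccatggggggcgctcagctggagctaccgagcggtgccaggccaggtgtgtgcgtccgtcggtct
CARS, chr11:3057374-3057673, minus strand: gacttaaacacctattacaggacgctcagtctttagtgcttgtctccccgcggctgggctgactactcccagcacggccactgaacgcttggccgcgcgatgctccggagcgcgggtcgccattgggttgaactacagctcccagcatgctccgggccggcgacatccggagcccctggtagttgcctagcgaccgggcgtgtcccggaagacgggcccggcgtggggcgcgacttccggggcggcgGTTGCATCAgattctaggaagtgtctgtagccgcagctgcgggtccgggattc

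ASNS, asparagine synthetase, was at 69.3 and 64.1 CPM in KMS12PE, against 735 and 868 CPM in KMS27 (log2 fold change -3.59 ± 0.19, adjusted p = 3.06e-09). CARS, the cysteinyl-tRNA synthetase, was at 31.2 and 25 CPM in KMS12PE, against 349 and 389 CPM in KMS27 (log2 fold change -3.72 ± 0.13, adjusted p = 7.03e-11). CHAC1, given above among the largest differences, was the lowest of the list relative to KMS27. PHGDH, the first enzyme of serine synthesis, was at 45 and 26.4 CPM in KMS12PE, against 683 and 787 CPM in KMS27 (log2 fold change -4.37 ± 0.27, adjusted p = 1.03e-08). SLC7A11, the cystine importer, was at 25 and 9.33 CPM in KMS12PE, against 327 and 263 CPM in KMS27 (log2 fold change -4.12 ± 0.32, adjusted p = 1.15e-07), and its KMS12PE libraries differed from each other more than those of the genes before. SESN2, a stress-induced inhibitor of mTORC1, was at 19.5 and 13.5 CPM in KMS12PE, against 165 and 175 CPM in KMS27 (log2 fold change -3.37 ± 0.16, adjusted p = 6.92e-10). All of these were lower in both KMS12PE libraries than in both KMS27 libraries.

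The synthetase genes did not move as 1 block: AARS (-2.90), WARS (-3.08), EPRS (-2.66), GARS (-2.26), NARS (-1.79), TARS (-1.39) and SARS (-1.35) were called lower with CARS. IARS, QARS (0.32), DARS (-0.34), RARS (-0.37), HARS (-0.65) and KARS (-0.66), among others, were not called. The amino acid transporter subunits SLC3A2 (-2.23) and SLC7A5 (-2.06) and the factors ATF4 (-1.26), DDIT3 (-2.43) and TRIB3 (-2.08) were called lower as well. PSAT1, the enzyme after PHGDH in serine synthesis, was in the KMS27 table only, at 1053 and 1185 CPM.

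The endoplasmic reticulum stress response element, searched as CCAAT and CCACG with 9 bases between them on both strands, was in promoters of 0.0916% of 27305 genes, and in 7 of the 28 members of the unfolded protein response list with a promoter sequence. Of these 7 genes 4 were called lower. The promoters of the chaperone HSPA5 and of the factor XBP1 are shown, with the element in capitals.
HSPA5, chr9:125241294-125241593, minus strand: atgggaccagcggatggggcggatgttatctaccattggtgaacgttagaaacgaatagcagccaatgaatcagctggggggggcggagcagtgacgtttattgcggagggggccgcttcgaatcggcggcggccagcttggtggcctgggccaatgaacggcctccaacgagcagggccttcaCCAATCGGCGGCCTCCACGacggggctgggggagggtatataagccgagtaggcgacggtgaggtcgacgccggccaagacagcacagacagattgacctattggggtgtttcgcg
XBP1, chr22:28800520-28800819, minus strand: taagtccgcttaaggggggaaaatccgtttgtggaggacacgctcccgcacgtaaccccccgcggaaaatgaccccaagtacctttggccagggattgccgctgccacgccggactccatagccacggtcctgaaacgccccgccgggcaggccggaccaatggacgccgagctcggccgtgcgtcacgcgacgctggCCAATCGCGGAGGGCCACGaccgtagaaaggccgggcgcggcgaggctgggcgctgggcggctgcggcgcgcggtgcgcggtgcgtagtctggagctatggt

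HSPA5, which encodes the endoplasmic reticulum chaperone BiP, was at 1309.8 and 1244 CPM in KMS12PE, against 3167 and 3498 CPM in KMS27 (log2 fold change -1.38 ± 0.13, adjusted p = 7.57e-07). XBP1, the factor made active by the sensor ERN1, was at 345 and 358 CPM in KMS12PE, against 732 and 858 CPM in KMS27 (log2 fold change -1.18 ± 0.16, adjusted p = 2.17e-05). CRELD2 (-1.44) and CALR (-1.12) also hold the element and were called lower, while PDIA6 (-0.38), HSP90B1 (-0.12) and CANX (0.05) hold it and were not. The 3 sensors of the response differed among themselves: ERN1 (-2.51) and EIF2AK3 (-1.71) were called lower and ATF6 was not called (-0.15).

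Of the degradation and transport genes of the endoplasmic reticulum, 7 of 10 were called lower. EDEM1, which hands misfolded glycoproteins to degradation, was at 77.8 and 66.8 CPM in KMS12PE, against 1006 and 920.0 CPM in KMS27 (log2 fold change -3.74 ± 0.15, adjusted p = 1.80e-10). HERPUD1, a part of the degradation complex, was at 97 and 96.4 CPM in KMS12PE, against 774 and 836 CPM in KMS27 (log2 fold change -3.06 ± 0.10, adjusted p = 3.84e-11). SEC24D, a coat protein of export vesicles, had a log2 fold change of -2.74, and SEL1L, the partner of the ligase SYVN1, of -2.21. Both KMS12PE libraries were below both KMS27 libraries for these genes. Summed over its 13 tested members, the chaperone part took 10887 and 10932 CPM in KMS12PE, against 15859 and 17070 CPM in KMS27. Of these chaperones 6 were called lower and none higher.

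Most RNAs of the MHC class II pathway, by which B cells and other antigen-presenting cells show peptides to helper T cells, were higher in KMS12PE. Of 18 tested genes 13 were called higher and 2 lower, with a median of 2.18. All 11 tested chain genes were called higher. HLA-DQB1 was at 184 and 178 CPM in KMS12PE, against 10.5 and 12.8 CPM in KMS27 (log2 fold change 3.96 ± 0.19, adjusted p = 1.03e-09). HLA-DPB1 was at 182 and 158 CPM in KMS12PE, against 16 and 17.1 CPM in KMS27 (log2 fold change 3.36 ± 0.16, adjusted p = 9.29e-10). HLA-DRA, the invariant partner of the DR beta chains, was at 855 and 849 CPM in KMS12PE, against 153 and 189.5 CPM in KMS27 (log2 fold change 2.32 ± 0.17, adjusted p = 6.47e-08). HLA-DMB and HLA-DOA, chains of the peptide editors DM and DO, had log2 fold changes of 4.02 and 4.50. The remaining chain genes HLA-DRB1 (2.05), HLA-DRB5 (2.53), HLA-DPA1 (2.85), HLA-DQA1 (1.34), HLA-DMA (2.52) and HLA-DOB (1.68) lay in the same direction. HLA-DRB1 and HLA-DRB5 are near-identical and highly variable between people, so reads can be split between them and their single values are uncertain.

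CIITA, the master regulator of these genes, was at 148 and 203 CPM in KMS12PE, against 22.3 and 16.7 CPM in KMS27 (log2 fold change 3.17 ± 0.40, adjusted p = 1.05e-05). CD74, the invariant chain that guards the class II groove, was at 1995 and 1853 CPM in KMS12PE, against 683 and 747 CPM in KMS27 (log2 fold change 1.43 ± 0.14, adjusted p = 1.29e-06). Both were high in both KMS12PE libraries. RFX5 (0.15) and RFXANK (0.84), which bind the X box of class II promoters, were not called, and their partner RFXAP was called lower (-1.42), as was CTSS, the protease that trims the invariant chain (-1.96). The Y box CTGATTGG, to which NF-Y binds beside the X box, was in promoters of 4.75% of 27305 genes and in 5 of the 15 class II members with a promoter sequence. It was found in HLA-DRB1, HLA-DRB5, HLA-DQB1 and HLA-DMA, which were called higher, and in RFX5, which was not. Read on the other strand, the Y box contains the letters CCAAT with which the endoplasmic reticulum stress response element begins. Promoters of the DR and DQ beta genes are shown with the Y box in capitals.
HLA-DRB1, chr6:32589799-32590098, minus strand: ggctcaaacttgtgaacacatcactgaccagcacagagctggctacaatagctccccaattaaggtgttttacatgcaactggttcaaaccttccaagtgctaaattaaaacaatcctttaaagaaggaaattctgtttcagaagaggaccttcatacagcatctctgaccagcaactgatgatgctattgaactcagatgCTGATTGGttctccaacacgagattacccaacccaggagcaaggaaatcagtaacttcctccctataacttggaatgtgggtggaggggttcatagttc
HLA-DQB1, chr6:32666608-32666907, minus strand: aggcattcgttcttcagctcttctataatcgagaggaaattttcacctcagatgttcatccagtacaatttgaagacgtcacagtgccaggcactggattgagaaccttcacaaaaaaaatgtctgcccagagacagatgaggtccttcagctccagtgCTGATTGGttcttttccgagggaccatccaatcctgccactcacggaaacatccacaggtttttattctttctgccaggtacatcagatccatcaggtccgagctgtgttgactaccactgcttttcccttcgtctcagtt

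MHC class I genes were called in both directions, more of them lower than higher. Of 20 tested, 2 were called higher and 7 lower, against 15.4% and 17.8% of all genes, with a median of -0.75. Of its 5 tested chain genes 2 were called lower, among them HLA-E (-1.17). HLA-B, HLA-C and the light chain B2M were not called, at -0.74, -0.45 and -0.36. With no minimum fold, all 5 chain genes were lower at an adjusted p under 0.05 in edgeR's test. The peptide-trimming enzymes ERAP1 and ERAP2 differed in opposite directions, at -2.32 and 4.01. The proteasome activator genes PSME1 (-1.69) and PSME2 (-1.79) and the immunoproteasome subunit PSMB10 (-1.73) were called lower. NLRC5, the transactivator of class I genes, was called higher at 8.05 and 16 CPM in KMS12PE, against 5.1 and 4.52 CPM in KMS27, and its KMS12PE libraries differed widely from each other. Without KMS12PE replicate 3, 1 gene of this list was called higher. Genes by which tumour cells touch natural killer and T cells gave 4 of 8 called lower, among them CD58 (-2.88) and CD48 (-1.83), and none higher by edgeR or DESeq2, with 1 gene higher at an unadjusted p under 0.05.

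Interferon-stimulated genes were mostly lower in KMS12PE. Of 21 tested, 3 were called higher and 13 lower, with a median of -1.67. IFITM1, a membrane protein that restricts viruses, was at 1.34 and 0.148 CPM in KMS12PE, against 28.3 and 35.1 CPM in KMS27 (log2 fold change -5.46 ± 0.40, adjusted p = 6.45e-08). IRF9 (-3.10), IRF7 (-1.85), STAT2 (-1.67), IFI6 (-3.43) and LY6E (-2.95) were called lower too. IFIT5 was called higher (4.64), as were ISG15 (1.29) and DDX58 (1.28), the RNA sensor RIG-I. Without KMS27 replicate 1, 1 gene was called higher and 13 lower. MX2 was in the KMS12PE table only, at 202 and 191 CPM, while OAS1 and OAS2 were in the KMS27 table only, at 38.3 and 49.5 CPM and 98.8 and 102 CPM.

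Of 24 tested genes of cholesterol synthesis and uptake 11 were called higher in KMS12PE and 1 lower, with a median of 0.94. Among its 19 enzymes 8 were called higher. IDI1, an isomerase of the isoprenoid pathway, was at 182 and 170.1 CPM in KMS12PE, against 24.1 and 27 CPM in KMS27 (log2 fold change 2.78 ± 0.14, adjusted p = 1.22e-09). DHCR7 (1.86), FDFT1 (1.72) and LSS (1.49), enzymes of the sterol branch, were called higher. So was INSIG1 (2.23), which holds the sterol sensor back. HMGCS1, an early enzyme of the pathway, was not called (-0.03). HSD17B7 was the 1 gene called lower (-1.71).

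Of 27 heat shock chaperones 9 were called higher and none lower, with a median of 0.79, and 18 were not called. DESeq2 called none lower, and 1 gene was lower at an unadjusted p under 0.05 in edgeR. Over all genes 15.4% were called higher and 17.8% lower. HSPB1, a small heat shock protein, was at 394 and 289 CPM in KMS12PE, against 8.27 and 9.16 CPM in KMS27 (log2 fold change 5.29 ± 0.21, adjusted p = 1.77e-10). The mitochondrial chaperones TRAP1 (1.96), HSPE1 (1.74) and HSPD1 (1.29) were called higher. HSP90AB1 (0.79) and the regulator HSF1 (0.81) were not called. HSPA1A and HSPA1B are near-identical copies, and their values of 0.65 and 1.40 are uncertain for that reason. Of the 13 tested chaperones of the endoplasmic reticulum, given above, 6 were called lower.

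Of 25 tested chromatin regulators 9 were called higher and 1 lower, with a median of 0.51. The shares over all genes were 15.4% and 17.8%. KDM6A, an H3K27 demethylase lost in some myelomas, was at 17.4 and 23.5 CPM in KMS12PE, against 0.425 and 0.669 CPM in KMS27 (log2 fold change 5.22 ± 0.36, adjusted p = 3.33e-08). HDAC9 (4.90), HDAC2 (1.83) and HDAC1 (1.63), which encode histone deacetylases, DNMT3B (3.37), a DNA methyltransferase, and CREBBP (2.23), an acetyltransferase, were called higher. KMT2B was the 1 gene called lower (-1.56). EZH2, the H3K27 methyltransferase, was not called (0.36). WHSC1, the target of another myeloma translocation, was not called either (0.51).

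NF-kB genes, often activated by mutation in myeloma, were called in both directions, with 4 of 27 higher and 8 lower. The shares over all genes were 15.4% and 17.8%. REL, a subunit of the factor, was called higher (3.51), and the other subunit genes NFKB1 (0.18), RELA (0.59) and NFKB2 (-0.84) were not called, apart from RELB, which was lower (-1.76). NFKBIA, the inhibitor and target of the pathway, was at 26.5 and 28.3 CPM in KMS12PE, against 214 and 241 CPM in KMS27 (log2 fold change -3.05 ± 0.12, adjusted p = 1.80e-10). CHUK (-1.55) and MAP3K14 (-2.16), kinases of the pathway, were called lower. The cytokine gene LTB was at 12.6 and 22.1 CPM in KMS12PE, against 0 and 0.0418 CPM in KMS27, with 1 count in KMS27 and a ratio of 877-fold (exact 95% counting interval 156 to 34811). Its neighbour LTA was at 2.52 and 7.25 CPM in KMS12PE, against 0 and 0.0836 CPM in KMS27, with 2 counts in KMS27 and a ratio of 125-fold (exact 95% counting interval 33 to 1057).

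Among 11 genes of the glucocorticoid response, the receptor gene NR3C1 was not called (0.31), while 1 gene was called higher, FKBP5 (1.48), and 5 lower. SGK1, a kinase induced by steroids, was at 8.89 and 9.33 CPM in KMS12PE, against 394 and 388 CPM in KMS27 (log2 fold change -5.42 ± 0.16, adjusted p = 1.69e-11). TSC22D3, which encodes the steroid-induced GILZ, was at 2.01 and 1.78 CPM in KMS12PE, against 34.3 and 37.1 CPM in KMS27 (log2 fold change -4.24 ± 0.20, adjusted p = 1.08e-09). Without KMS12PE replicate 3 or without KMS27 replicate 2, and with library totals only, 2 genes of this list were called higher. The shares over all genes were 15.4% higher and 17.8% lower.

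Of 30 tested chemokine and cytokine receptor genes with their signalling partners, 8 were called higher and 9 lower. The shares over all genes were 15.4% and 17.8%. IL6R, the receptor chain for the myeloma growth factor interleukin 6, was at 179 and 178 CPM in KMS12PE, against 11.8 and 12.9 CPM in KMS27 (log2 fold change 3.85 ± 0.18, adjusted p = 6.19e-10), and its partner IL6ST was called lower (-1.25). IL21R was at 5.03 and 4.44 CPM in KMS12PE, against 182 and 177 CPM in KMS27 (log2 fold change -5.25 ± 0.14, adjusted p = 9.18e-12). SOCS2, a suppressor of cytokine signals, was at 241 and 285 CPM in KMS12PE, against 4.79 and 6.1 CPM in KMS27 (log2 fold change 5.60 ± 0.15, adjusted p = 9.26e-12). CXCR4, the homing receptor for bone marrow, was called lower (-1.83). In adhesion, 1 of 12 genes was called higher and 5 lower. ITGAL, the alpha chain of the integrin LFA-1, was at 15.6 and 12.4 CPM in KMS12PE, against 750.3 and 718 CPM in KMS27 (log2 fold change -5.72 ± 0.14, adjusted p = 9.18e-12). ITGB7 was called lower (-3.55), and ITGA4, its partner, was not called (0.27). VIM, which encodes vimentin, was in the KMS27 table only, at 417 and 438 CPM. With scaling by library totals only, the adhesion list had 2 genes higher and 5 lower and its median turned to 0.11. Drug efflux pumps gave 2 of 4 called higher, ABCC1 (1.56) and ABCC4 (1.27), and 1 lower, ABCC2 (-2.49). ABCG2 was in the KMS12PE table only, at 34.7 and 40.4 CPM.

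**Figure D3:**
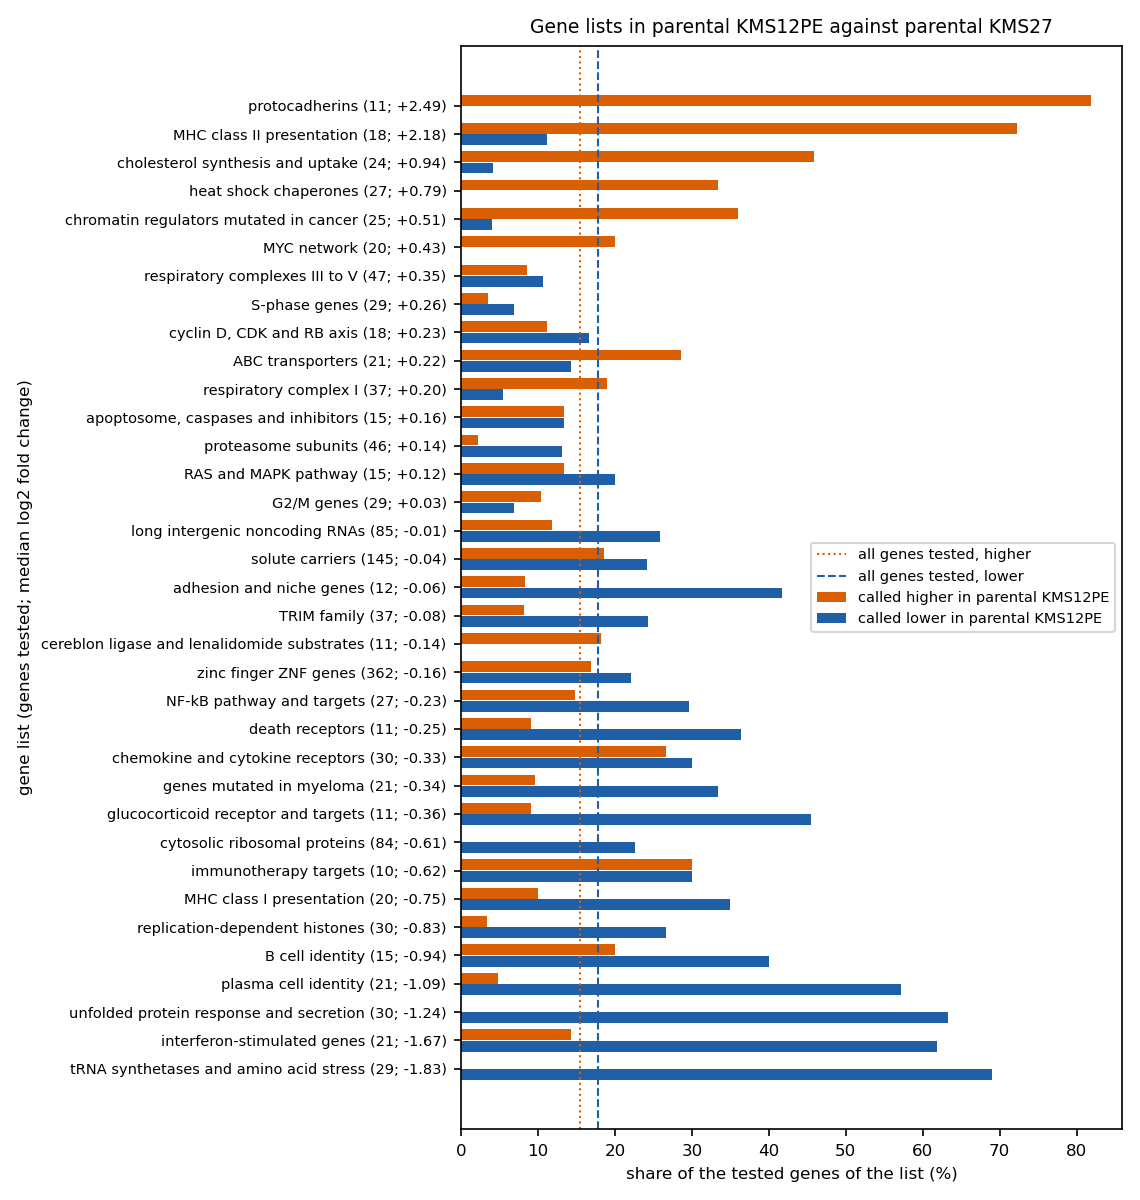
Share of the tested genes of each reported list of 10 or more genes that were called higher (orange bars) or lower (blue bars) in parental KMS12PE, in percent, ordered by median log2 fold change, with the shares over all genes as vertical lines (15.4% higher, dotted, and 17.8% lower, dashed). MHC class II and protocadherins lie far past the line on the higher side, and the amino acid stress and unfolded protein response lists on the lower side.

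Differences were unevenly spread over the genome. With symbols placed by GENCODE v29 on GRCh38, 93.3% of the tested genes had 1 chromosome, and medians were taken in windows of 20 Mb. In chr1:200000001-220000000 the median log2 fold change was -1.54, with 3 of 81 genes called higher and 55 lower. The synthetase gene EPRS, named above, is in this window. CD55, given above, lies there, with the kinesin gene KIF21B at 10.6 and 9.77 CPM in KMS12PE, against 543 and 481 CPM in KMS27 (log2 fold change -5.65 ± 0.20, adjusted p = 6.19e-11) and the lysophospholipid enzyme gene LPGAT1 at 2.85 and 2.52 CPM in KMS12PE, against 126 and 118 CPM in KMS27 (log2 fold change -5.50 ± 0.23, adjusted p = 2.78e-10). In chr16:60000001-80000000 the median was -0.97, with 2 of 106 genes called higher and 48 lower, among them MON1B (-2.24), GLG1 (-1.78) and the synthetase gene AARS. In chr10:80000001-100000000 it was -0.93, with 5 of 63 genes called higher and 28 lower. In chr5:100000001-120000000 the median was -0.92, with 1 of 36 genes called higher and 16 lower.

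The windows with the highest medians were on chromosomes 10, 6 and 9. In chr10:1-20000000 the median was 1.81, with 35 of 48 genes called higher and 3 lower. The isomerase gene IDI1, named above, is in this window. PFKFB3, a regulator of glycolysis, was at 98.2 and 90.9 CPM in KMS12PE, against 3.13 and 3.09 CPM in KMS27 (log2 fold change 4.92 ± 0.14, adjusted p = 1.24e-11), and the kinase gene CAMK1D (4.54) and the splicing factor gene RBM17 (2.31) lie there too. In the adjoining chr10:20000001-40000000 the median was 1.09, with 22 of 43 genes called higher and 3 lower. BMI1, a Polycomb protein, was at 752 and 834 CPM in KMS12PE, against 82.1 and 78.8 CPM in KMS27 (log2 fold change 3.30 ± 0.13, adjusted p = 1.44e-10), and SPAG6 and SVIL, named above, lie beside it. In chr6:100000001-120000000 the median was 1.34, with 38 of 53 genes called higher and 4 lower, among them DSE (5.40), WASF1 (3.50) and GOPC (1.99). HDAC2, called higher, and PRDM1, called lower, both named above, lie there as well. In chr9:100000001-120000000 it was 1.23, with 29 of 51 genes called higher and 2 lower. Of the whole chromosomes, chromosome 10 had the highest share of called genes, 51.2%, with 83 of 389 genes called higher and 116 lower. No copy number was used here, so a change of DNA dose and a change of regulation cannot be told apart.

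**Figure D4:**
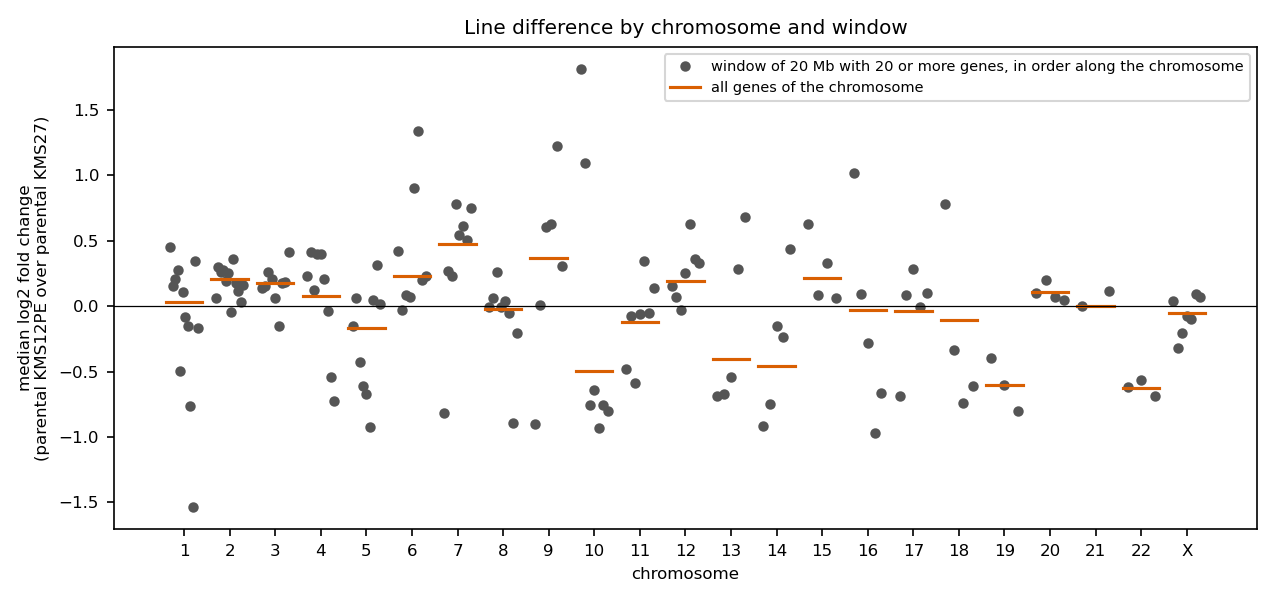
Median log2 fold change of parental KMS12PE over parental KMS27 in windows of 20 Mb with 20 or more tested genes (points, in order along each chromosome) and over each whole chromosome (orange lines). The lowest window is on chromosome 1 (-1.54) and the highest on chromosome 10 (1.81).

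Genes listed in 1 table only have no value in the other line and no fold change. Immunoglobulin genes aside, the highest in the KMS12PE table was RELN, which encodes the secreted protein reelin, at 1781 and 1464 CPM. AMY1A, a salivary amylase gene with near-identical copies and therefore of uncertain count, was at 1082 and 1159.9 CPM, and ITM2C, a membrane protein gene, at 701 and 693 CPM. CAV1, the coat protein of caveolae, was at 269 and 361 CPM. LIN28B, an inhibitor of let-7 microRNA processing, was at 300.3 and 269 CPM, and ANKRD30A at 218 and 274 CPM. TRIM49B, which has close copies, was at 455 and 486 CPM. MYEOV, given above, ran from 24.2 to 304 CPM over the KMS12PE clone libraries.

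Among genes of the KMS27 table only, immunoglobulin genes aside, PSAT1 had the highest level, followed by ADCY1, an adenylyl cyclase, at 606 and 531 CPM and VIM. STOM, a membrane scaffold protein, was at 351 and 402 CPM. ADAM23, an adhesion protein of the metalloproteinase family, was at 352 and 339 CPM. SEL1L3 was at 303 and 327 CPM, and APP, the amyloid precursor protein, at 305 and 319.6 CPM. RP11-284F21.10 was at 321 and 294 CPM. The KMS27 libraries hold more counts, so the KMS27 table reaches lower levels.

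The difference between the parental lines was mostly seen again between their resistant clones. Fold changes between clones came from other libraries than those between parental lines, but the spread behind both sets of calls was estimated from all 16 libraries together. Line, table and depth differ between the clones as they do between the parental lines. Between the 6 KMS12PE clone libraries and the 6 KMS27 clone libraries 4024 genes were called (34.6%). Of the 3851 genes called between parental lines, 2996 were called with the same sign between the clones, which is 77.8% of the parental and 74.45% of the clone calls, and 15 were called with the opposite sign. Across the 11623 genes the correlation of the fold changes was 0.869 (Pearson), a description over genes of related cells that are not independent. A change in the line difference between parental cells and clones was called for 586 genes (5.04%), 393 of them among the 3851.

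Among lists of 10 or more tested genes, the class II pathway had the highest share of genes with a changed line difference. Its median was 2.18 between parental lines and -0.09 between clones, and the line difference changed for 13 of its 18 genes. HLA-DQB1 clone means were 164, 163 and 155 CPM in KMS12PE clones A, C and D, against 77.4, 134 and 184 CPM in KMS27 clones B5, C1 and C5, and the line difference was 3.59 ± 0.21 higher on the log2 scale in parental cells (adjusted p = 1.05e-07). CIITA clone means were 141, 201 and 153 CPM in KMS12PE clones A, C and D, against 55.9, 52.2 and 119.7 CPM in KMS27 clones B5, C1 and C5, and the line difference was 1.95 ± 0.43 higher in parental cells (adjusted p = 0.00838). For each of the 13 genes the mean of every KMS27 clone was above that of parental KMS27. The median of the unfolded protein response list was -1.24 between parental lines and -0.69 between clones, with the line difference changed for 2 of its 30 genes. The median of the amino acid stress list was -1.83 between parental lines and -2.02 between clones.

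BCL2 differed between the clones by 1.60 on the log2 scale, beside 1.65 between parental lines, and MYC by 3.66, beside 3.16. BCL2L11 differed by 2.43 between clones, and its line difference was 1.25 ± 0.14 larger in parental cells (adjusted p = 4.18e-05). CD38 was higher in KMS12PE by 1.47 in parental cells and by 3.97 in clones, a change of -2.50 ± 0.15 (adjusted p = 1.43e-07). POU2AF1 clone means were 4.04, 4.74 and 0 CPM in KMS12PE clones A, C and D, against 305, 464 and 374 CPM in KMS27 clones B5, C1 and C5, so the gene was far lower in the KMS12PE clones than in parental KMS12PE, and its line difference changed by 6.13 ± 0.25 (adjusted p = 2.27e-08).

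A few genes turned their direction. IL32, a cytokine gene, was at 118 and 98.2 CPM in KMS12PE, against 665 and 824 CPM in KMS27 in parental cells (log2 fold change -2.79 ± 0.27, adjusted p = 1.04e-06). Its clone means were 116, 100.4 and 70.5 CPM in KMS12PE clones A, C and D, against 12.5, 17.5 and 21 CPM in KMS27 clones B5, C1 and C5, and the clone difference was 2.49. IL2RB, a chain of the interleukin 2 receptor, was at 10.7 and 7.25 CPM in KMS12PE, against 2.09 and 1.46 CPM in KMS27 in parental cells, with clone means of 10.8, 10.0 and 0.117 CPM in KMS12PE clones A, C and D, against 22, 26 and 20.5 CPM in KMS27 clones B5, C1 and C5. Here 1 KMS12PE clone, clone D, stood apart from the other two. ENO2, a neuronal enolase, was at 5.37 and 5.48 CPM in KMS12PE, against 19.9 and 19.1 CPM in KMS27 in parental cells, with clone means of 6.61, 11.3 and 5.71 CPM in KMS12PE clones A, C and D, against 0.173, 1.76 and 0.349 CPM in KMS27 clones B5, C1 and C5. CXCR3, CCDC80 and FOXO6 also turned, at parental log2 fold changes of 2.87, 3.17 and 3.31 beside clone values of -2.16, -3.38 and -2.68, all 3 at under 6 CPM in every population.

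**Figure D5:**
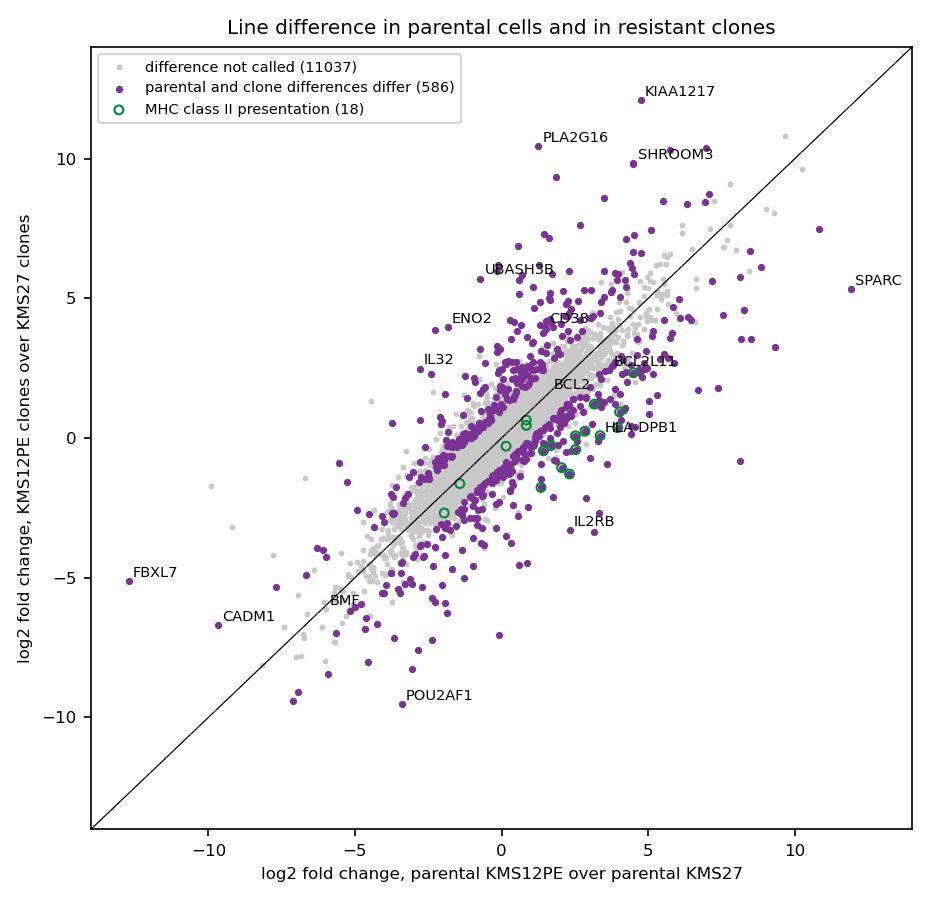
Log2 fold change of KMS12PE clones over KMS27 clones (y axis) against that of parental KMS12PE over parental KMS27 (x axis) for 11623 genes, with the 586 genes whose line difference changed in purple and the 18 class II genes ringed in green. The class II genes whose line difference changed lie below the diagonal.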

How the data were processed

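The authors deposited whole-number counts by gene symbol, without normalization, in a table for each line, 16 libraries in all. The genome build is hg38, per the submitters' processing notes. The aligner, counter, annotation and use of strand are not given in the sources consulted. Antisense and overlapping genes can therefore share reads. Each table holds genes that reach 5 counts in 4 or more of its 8 libraries, a filter found from the values. The tables were joined on symbols in both, with no further filter. All 16 libraries were fitted with edgeR 4.0.16 in R 4.3.3, with 1 mean for each of 8 populations, TMM scaling on full-table totals, estimateDisp, glmQLFit and glmQLFTest, 2-sided, and p-values were adjusted over all 11623 genes. The biological coefficient of variation was 12.8%, with 8 residual degrees of freedom. CPM uses the scaled library totals. The test was also tried on simulated counts with known changes, whose levels and single common spread were taken from the fit of these data.

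Groups are as the labels give them, with 2 libraries per population. The replicates differed by more than sampling noise in each group. The replicate numbers are 1 and 3 in KMS12PE and 1 and 2 in KMS27, and pair no libraries between the lines. Ratios and bounds for genes with 3 or fewer counts in a parental group use 3 counts over the group as the floor and an exact 95% binomial interval. These cover counting error only.

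The comparison, the gene lists and the tests were chosen with earlier results of these data known, so list counts support nothing independently. Named by rule, leaving out immunoglobulin and T cell receptor genes, are the 12 largest differences in each direction at 32 CPM or more, the tested members of the BCL2 family, cyclin, antigen and cereblon lists, the 4 or fewer called genes of smallest adjusted p in every other list, up to 8 genes of opposite sign in clones, up to 8 with the largest change of the line difference, and the 8 highest genes of each single table. Further members of the lists were named after their values were seen, as were window and immunoglobulin genes. Alternatives were other scaling factors, DESeq2 1.42.0, other filters, thinned counts, a replicate block, no immunoglobulin genes, the parental libraries alone, no minimum fold, and leaving out each library. Results on some genes and 1 list are not reported here. Windows use GENCODE 29, and promoters RefSeq tables on GRCh38.p14.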

Additional observations from a re-analysis of the deposited data

Results flagged for a closer look

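Of the 271 genes of both tables named in the text, 65 had a line difference that changed between parental cells and clones at an adjusted p under 0.05 and at least 2-fold in edgeR's interaction test over the 16 libraries. Values below are the parental log2 difference between the lines minus that of the clones. The causes were not tested. Without 1 parental library the number of such genes over the whole table was 463 to 536, against 586 with all libraries.

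In several genes the change came with levels near 0 in 1 group, where the fitted value depends on the prior count. PLA2G16, a phospholipase gene, had clone means of 46.7, 47.4 and 47.8 CPM in KMS12PE clones A, C and D, against 0, 0.837 and 0 CPM in KMS27 clones B5, C1 and C5, beside 30.9 and 33.5 CPM in KMS12PE, against 13 and 14.2 CPM in KMS27 in parental cells (change -9.21). KIAA1217 had clone means of 209, 240.4 and 264 CPM in KMS12PE clones A, C and D, against 0.0278, 0.743 and 0 CPM in KMS27 clones B5, C1 and C5, beside 206 and 238 CPM in KMS12PE, against 9.27 and 7.23 CPM in KMS27 in parental cells (change -7.36). UBASH3B, a phosphatase gene of lymphocytes, changed by -6.44, ZNF486 by -5.40 and SHROOM3 by -5.33. For these 5 genes the 3 KMS27 clones were all under 1 CPM. FBXL7 changed by -7.58, having no count in parental KMS12PE and 0.549 to 2.54 CPM in the KMS12PE clones. SPARC changed by 6.60, having 2.04 to 6.42 CPM in the KMS27 clones and 2 counts in parental KMS27.

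The genes that turned direction changed by -5.28 (IL32), 5.63 (IL2RB), -5.81 (ENO2), 5.03 (CXCR3), 6.55 (CCDC80) and 6.0 (FOXO6). The 13 class II genes changed by 3.60 (HLA-DRA), 3.11 (HLA-DRB1), 2.94 (HLA-DRB5), 2.60 (HLA-DPA1), 3.28 (HLA-DPB1), 3.11 (HLA-DQA1), 3.59 (HLA-DQB1), 2.44 (HLA-DMA), 3.09 (HLA-DMB), 2.16 (HLA-DOA), 1.95 (HLA-DOB), 1.95 (CIITA) and 1.89 (CD74), all toward a larger excess of KMS12PE in parental cells.

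Among the other named genes the change was positive, that is higher in KMS12PE in parental cells relative to clones, at 2.28 for ADAM28, 1.25 for BCL2L11, 2.19 for BTK, 2.27 for CDH1, 2.43 for HDAC9, 1.05 for HLA-B, 5.59 for HOXA3, 1.11 for HSPA1B, 1.05 for ICAM1, 2.15 for INHBE, 1.02 for INSIG1, 1.86 for ITGB7, 1.31 for KIF21B, 4.99 for LTA, 6.07 for LTB, 1.21 for LY6E, 2.18 for MAGEC1, 4.17 for PCDHGB2, 1.81 for PFKFB3, 3.33 for PLD4, 1.08 for PMAIP1, 6.13 for POU2AF1, 4.62 for SEMA4D, 2.63 for SPIB, 2.35 for SVIL, 4.75 for SYK, 2.82 for TNFRSF1B and 1.75 for TNFRSF8. It was negative at -3.0 for CADM1, -2.50 for CD38, -1.04 for EIF2AK3, -2.34 for GAS2, -1.69 for IGHV3-7, -2.04 for IL6R, -1.11 for ITGA4, -5.87 for PIK3CD, -1.40 for SYVN1, -1.04 for TRADD and -1.55 for WASF1. Levels near 0 also affect some of these values. Parental KMS27 had no HOXA3 count, 2 LTA counts and 1 count each of LTB and PLD4. The changes of these genes depend on the prior count too. A gene that missed the limit was not thereby shown to have the same line difference in parental cells and clones.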

How the results depend on the processing

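The count of 3851 genes called between the parental lines ran from 3749 to 3966 over 10 alternatives in scaling, tool, filter, depth and fit, and from 3637 to 3789 without 1 parental library. With no minimum fold it was 7430. The 4024 calls between clones ran from 3870 to 4046, and from 3983 to 4105 without 1 clone library. The 586 calls of a changed line difference ran from 522 to 691, and from 463 to 536 without 1 parental library. DESeq2 called 3802, 4009 and 574. Of 225 genes that the naming rule chose, 11 fell inside the 2-fold limit or above the p threshold under at least 1 alternative. Another 6 moved past them, and these were 17 and 8 of the values computed. None of the 225 genes turned its sign where it was called in the main fit or in the alternative. Over all tested genes, 1 gene called in the main fit turned its sign after thinning to the lowest total. Turns of genes called in neither were not counted. No paired analysis was possible because the lines share only replicate number 1 and no label ties a library of KMS12PE to one of KMS27. With the replicate block within each line the counts were 3966, 4041 and 691. Within KMS12PE the deviations of same-numbered libraries correlated at 0.438 to 0.75 over 6 pairs of populations, and within KMS27 at -0.0697 to 0.775. 

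Depth limits the low genes of KMS12PE: 3 counts were 0.503 and 0.444 CPM there, against 0.116 and 0.125 CPM in KMS27. After all libraries were thinned to the lowest total, 3749 genes were called. Fold changes were nearly unrelated to transcript length (Spearman 0.0202 over 10627 genes, a description) and to GC content (-0.0351).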

Other observations

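Several gene families not described above differed by table as well as by level. Protocadherins, adhesion proteins of neurons encoded in clusters of similar genes, had 9 of 11 tested members called higher in KMS12PE and none lower by edgeR or DESeq2, nor any at an unadjusted p under 0.05, with a median of 2.49, and 14 more were in the KMS12PE table only, against 3 in the KMS27 table only. PCDHGB2 was at 3.86 and 3.11 CPM in KMS12PE, against 0.0773 and 0.125 CPM in KMS27 (log2 fold change 5.02 ± 0.63, adjusted p = 1.05e-05). PCDHB2 was in the KMS12PE table only, at 28.5 and 21.8 CPM. HOX genes, which set position along the body axis, split by cluster between the tables. All 3 in both tables were of the HOXA cluster and called higher, HOXA5 (2.84), HOXA6 (3.20) and HOXA3. HOXA3 had no count in KMS27 and was at least 18-fold higher in KMS12PE against 3 counts over the group. Levels were low: the 3 genes summed to 6.04 and 7.11 CPM in KMS12PE, against 0.85 and 0.54 CPM in KMS27. Their median log2 fold change ran from 2.7 to 3.7 without 1 parental library. The highest in 1 table only were HOXA10 at 15.4 and 18.2 CPM in KMS12PE and HOXB9 at 104 and 99 CPM in KMS27.

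Cancer-testis antigens, germ cell proteins that tumours can express, had 4 tested members, of which 2 were called higher, MAGEA12 (1.28) and TEX14 (3.95), and 1 lower. The lower one, MAGEC1, was at 10.2 and 5.03 CPM in KMS12PE, against 202 and 178 CPM in KMS27 (log2 fold change -4.66 ± 0.20, adjusted p = 4.52e-10), and CSAG1 was not called (0.36). There were 8 in the KMS12PE table only, the highest being PAGE5 at 144 and 152 CPM, and 3 in the KMS27 table only, the highest being MAGEA1 at 113 and 132 CPM. Several MAGE genes have near-identical copies and uncertain counts. Cytosolic ribosomal protein genes had none of 84 called higher and 19 called lower, with a median of -0.61, and summed to 71321 and 68673 CPM in KMS12PE, against 93769 and 124057 CPM in KMS27. The 2 KMS27 libraries thus differed from each other in this sum, and without KMS27 replicate 2 the list had 1 gene higher and 12 lower. DESeq2 called none higher, and 5 were higher at an unadjusted p under 0.05. In edgeR's test 22.6% of this list were called, all lower, against 17.8% of all genes called lower. Replication-dependent histone genes had 1 of 30 called higher and 8 lower, together 30.0%, against 33.1% of all genes. Their RNAs mostly lack a poly-A tail, so poly-A libraries measure them incompletely.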
